A study of Rattus norvegicus with 22 samples.

Results

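Zinc finger and chromatin regulator genes were followed in the liver of male Wistar rats. Their mothers were kept on the control (C) diet or on the obesogenic diet that defines the maternal obesity (MO) group. They were taken by name from the larger of the 2 deposited tables, that of the males. Every row was kept whose title starts with Zfp, Kdm, Setd, Hdac, Smarc, Prmt, Dnmt, Brd, Chd, Arid, Ino80 or Sirt, or with Med, Kmt or Tet before a digit. This gave 32 genes, each with 1 row, of 1325 gene titles in 1365 rows. The genes came from 9 of the 15 name stems, with 16 Zfp genes, 4 Med, 3 Dnmt, 3 Hdac, 2 Kdm and 1 each of Setd, Smarc, Arid and Ino80. The stems Prmt, Brd, Chd, Sirt, Kmt and Tet had no row.

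The study sequenced liver RNA from 22 young adult offspring, 1 library per animal, at postnatal day 110. The groups used here were 6 males of control mothers and 5 males of MO mothers, all of the Wistar strain and of the same age. A smaller table of 69 rows covers 6 control and 5 MO females. The sources used here do not give litters, the composition of the diets or the diet of the offspring after weaning, and each p-value therefore reflects how far these animals vary. The values imply 7890000 to 11170000 reads per library in the control males and 10530000 to 11590000 in the MO males. Levels are in RPM, read numbers scaled to library size, a unit that is not corrected for transcript length, so levels are compared between animals and not between genes. With the step read from the values, 1 read was worth 0.086 to 0.127 RPM.

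Gene silencing and activation in chromatin rest on enzymes that write or remove marks on DNA and histones, on complexes that move nucleosomes, and on proteins that bring these to chosen sites. Dnmt enzymes methylate DNA, Hdac enzymes remove acetyl groups from histones and other proteins, Kdm enzymes remove methyl groups from histone lysines, and Setdb1 adds them to histone H3 as a silencing mark. Many C2H2 zinc finger proteins carry a KRAB domain, through which Trim28 and Setdb1 are recruited to the sequence that the fingers bind. The Mediator complex (Med genes) links transcription factors to RNA polymerase II. In liver, diet and hormones are known to act on the same enzymes, many of which use metabolites such as S-adenosylmethionine or alpha-ketoglutarate.

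Promoter windows from RefSeq (assembly GRCr8, from 250 bases before to 50 bases after an annotated start) were examined to describe the 32 genes. A window was found for 26 of the 32 genes, 29 windows in all. Dnmt3b, Hdac11, Ino80e, Zfp362, Zfp395 and Zfp512b had none in the table. The following 5 are examples of windows with a match to at least 1 of the motifs searched. They were picked after the matches had been counted, and the other genes with a match are named below. All are written 5′ to 3′ in the direction of transcription, with the letters of the motif named beside each in capitals.

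Setdb1, chr2:185618933-185619232, minus strand, with 2 matches to CCGGAAG (ETS family):
Setdb1: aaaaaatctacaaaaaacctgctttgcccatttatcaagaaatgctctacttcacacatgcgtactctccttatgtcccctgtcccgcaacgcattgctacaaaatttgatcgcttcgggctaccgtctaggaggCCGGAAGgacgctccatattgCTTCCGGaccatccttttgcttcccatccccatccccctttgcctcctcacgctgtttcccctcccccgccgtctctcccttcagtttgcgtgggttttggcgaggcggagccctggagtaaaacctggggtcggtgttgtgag

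Dnmt1, chr8:27762792-27763091, minus strand, with the NRF1 core GCATGCG read on both strands at 1 palindromic place (2 overlapping matches):
Dnmt1: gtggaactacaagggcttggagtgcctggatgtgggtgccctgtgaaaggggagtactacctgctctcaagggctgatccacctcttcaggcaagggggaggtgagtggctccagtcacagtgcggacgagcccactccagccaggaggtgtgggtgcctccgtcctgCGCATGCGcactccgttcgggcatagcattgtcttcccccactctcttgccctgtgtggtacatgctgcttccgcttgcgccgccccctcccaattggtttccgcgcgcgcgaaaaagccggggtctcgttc

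Zfp207, chr10:65883380-65883679, plus strand, with 1 match to AAGATGG (YY1; its CACGTG match is left in lower case):
Zfp207: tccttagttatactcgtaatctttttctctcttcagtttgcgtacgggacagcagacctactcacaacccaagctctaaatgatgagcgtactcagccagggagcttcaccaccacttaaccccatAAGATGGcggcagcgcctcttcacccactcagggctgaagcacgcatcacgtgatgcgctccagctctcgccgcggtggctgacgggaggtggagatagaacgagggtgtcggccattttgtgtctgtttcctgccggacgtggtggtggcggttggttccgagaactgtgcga

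Zfp763, chr7:12798172-12798471, minus strand, with 1 match to AAGATGG on the other strand:
Zfp763: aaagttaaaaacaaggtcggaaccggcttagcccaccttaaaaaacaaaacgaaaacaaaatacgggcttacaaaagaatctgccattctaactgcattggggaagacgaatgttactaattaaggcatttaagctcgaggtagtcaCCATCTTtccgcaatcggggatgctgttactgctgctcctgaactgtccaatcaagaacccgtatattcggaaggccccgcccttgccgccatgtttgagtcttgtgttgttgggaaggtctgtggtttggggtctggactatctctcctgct

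Zfp865, chr1:77833892-77834191, plus strand, with 1 match to AAGATGG, which lies after the annotated start (its 2 overlapping GCATGCG matches are left in lower case):
Zfp865: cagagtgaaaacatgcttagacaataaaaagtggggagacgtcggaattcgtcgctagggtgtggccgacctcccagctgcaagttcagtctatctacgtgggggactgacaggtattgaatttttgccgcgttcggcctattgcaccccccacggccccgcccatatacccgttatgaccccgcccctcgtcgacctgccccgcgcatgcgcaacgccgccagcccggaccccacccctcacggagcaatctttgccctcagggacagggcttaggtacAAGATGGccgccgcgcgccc

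The motifs were searched as exact letters on both strands, and the 4 do not contain one another. AAGATGG was in 5 of the 29 windows, those of Zfp207, Zfp385a, Zfp385b, Zfp763 and Zfp865. This was 33.3% of the 15 windows of Zfp genes and 0 of the 14 windows of the other genes, against 4.77% of the 1028 windows of the other rows of the table and 7.01% of all 33469 windows. CCGGAAG was in 4 windows, 13.8%, against 13.6% of the windows of the other rows and 8.75% of all. These were the windows of Setdb1, Hdac10, Zfpl1 and Zfp958. GCATGCG was in 3 windows, those of Dnmt1, Med4 and Zfp865, or 10.3% against 5.45% and 3.33%. The E-box CACGTG was in 3, those of Dnmt3a, Med16 and Zfp207, or 10.3% against 9.14% and 6.42%. The windows of the 32 genes held a median of 17 CG steps and 55.7% G plus C. Those of the other rows held 18 and 60%, and all windows 7 and 51.7%. These shares are descriptions of letters, and Zfp385a had 3 windows and Smarcd3 had 2.

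All 32 genes were lower in MO males. Their median log2 fold change was -0.60, and the range was from -1.01 for Med20 to -0.48 for Arid3b. All 32 passed the limma threshold (adjusted p from 0.00155 for Zfp763 to 0.02 for Ino80e), but so did every row of the table, 96.5% of them as lower and 3.52% as higher. The authors' deposited table has 0 rows with an unadjusted p of 0.05 or more for this same comparison, and no listed change is under 0.48, so neither the calls nor the shared direction tell these genes from the other rows. The median over all 1365 rows was -0.58, and 18 of the 32 genes lay below it. In bulk liver, fewer cells of a type and less RNA per cell cannot be told apart.

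When each library was centred on its median over the table, which removes a shift of -0.58, the 32 genes spread around 0. There were 18 below and 14 above, from -0.43 for Med20 to 0.10 for Arid3b and Ino80e, with a median of -0.02. By limma, 0 of the 32 passed after centring, and 0 had an unadjusted p under 0.05. Of all rows in the same fit 1.76% of the rows passed as lower and 3.52% as higher. The smallest centred p among the 32 was that of Zfp763 (unadjusted 0.0739, limma adjusted p = 0.72). The median was taken over rows listed for this same difference, so centring also removes any change that these rows share.

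**Figure D1:**
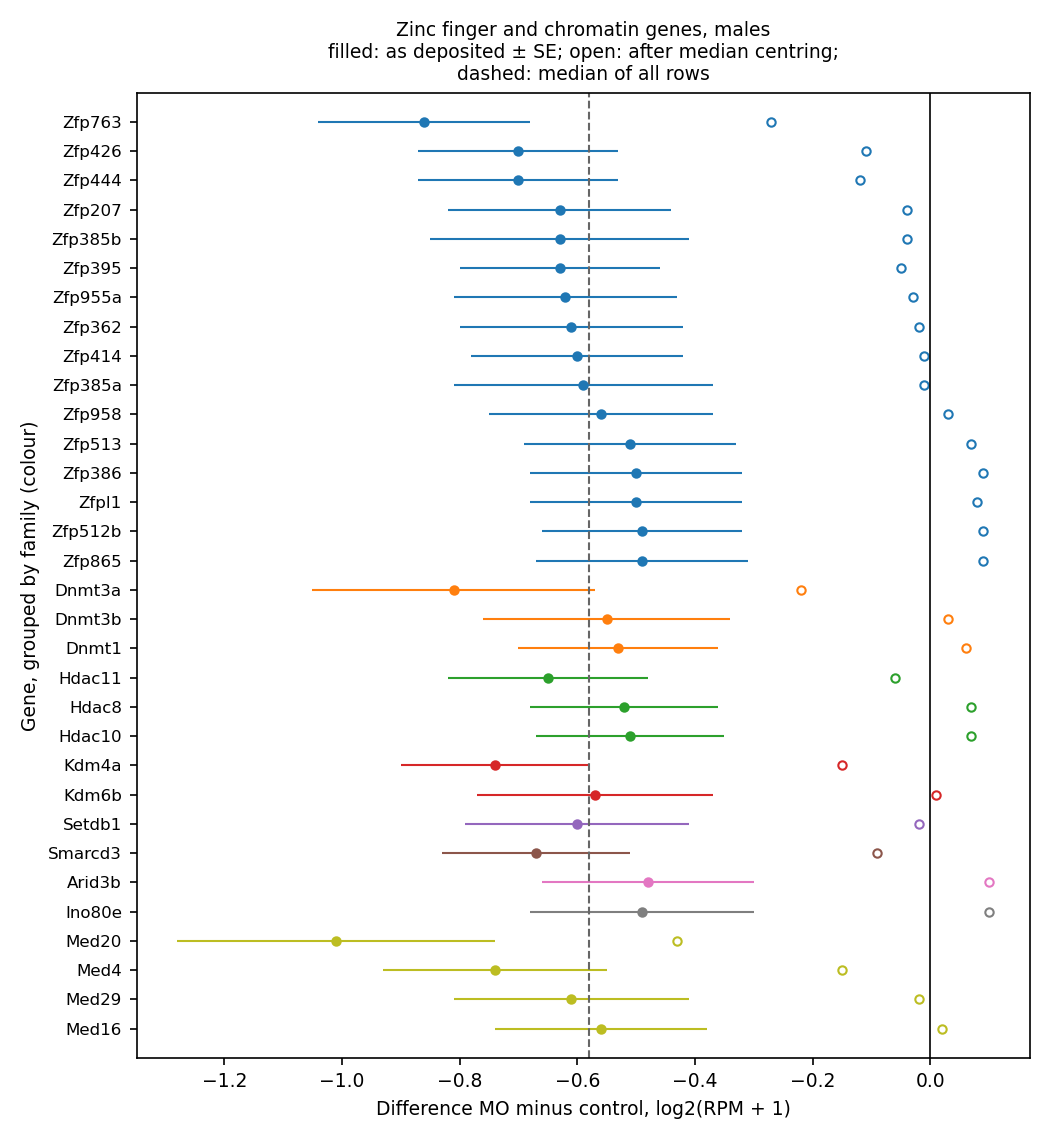
Difference between MO and control males for each of the 32 genes on the log2(RPM + 1) scale, with filled points and SE bars for values as deposited and open points after centring of each library on its median. The filled points all lie below 0 around the dashed line at the median of all rows (-0.58), and the open points lie on both sides of 0, with Med20 farthest at -0.43.

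The animals differed in level across the whole set. Summed over the 32 genes, the level was 553 to 818 RPM in control males (644 ± 101, SD, n = 6) and 354 to 475 RPM in MO males (417 ± 54.2, SD, n = 5), so the groups did not overlap. The 16 Zfp genes gave 350 ± 55.4 RPM (SD, n = 6) and 233 ± 34 RPM (SD, n = 5). The 16 chromatin and Mediator genes gave 294 ± 46.7 RPM (SD, n = 6) and 185 ± 21.4 RPM (SD, n = 5). Neither sum overlapped between the groups, among rows that had been listed for a difference between them. All 1365 rows together did not overlap either, at 9.69% to 15.3% of reads in control males and 6.58% to 8.69% in MO males.

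**Figure D2:**
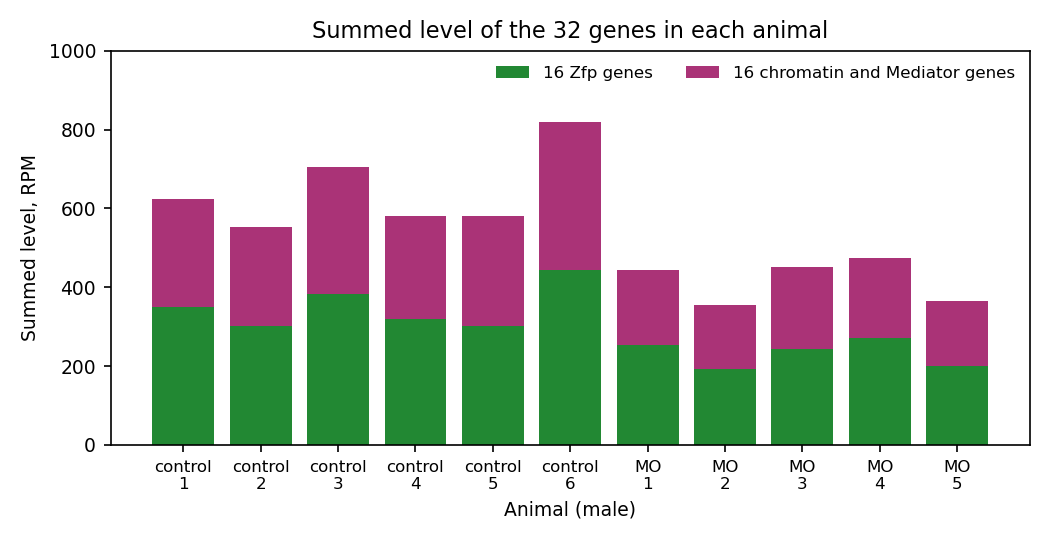
Summed level in RPM of the 32 genes in each male, divided into the 16 Zfp genes and the 16 chromatin and Mediator genes. The 5 MO males, at 354 to 475 RPM, lie under the lowest control at 553 RPM.

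Control male 6 had the highest control level for 22 of the 32 genes, and it did so for 71.4% of all rows. The exceptions were Dnmt3a, Dnmt3b, Zfp395 and Zfp426, highest in control male 2, Kdm4a, Med29, Zfp385b and Zfp955a, highest in control male 3, Zfp385a in control male 1 and Med20 in control male 5. Among MO males, number 2 was lowest for 12 genes and number 5 for 10, against 34.1% and 40.8% of all rows. MO male 3 was highest for 14, among them all 3 Dnmt genes, against 30.2% of all rows. The median deviation from the control mean was -0.80 in MO male 2 and -0.75 in MO male 5, and -0.57, -0.47 and -0.45 in MO males 1, 3 and 4. Over all rows it was -0.75 and -0.78, and -0.50, -0.52 and -0.45 in the same animals. MO males 2 and 5 were thus the lowest both in the 32 genes and in the table as a whole.

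**Figure D3:**
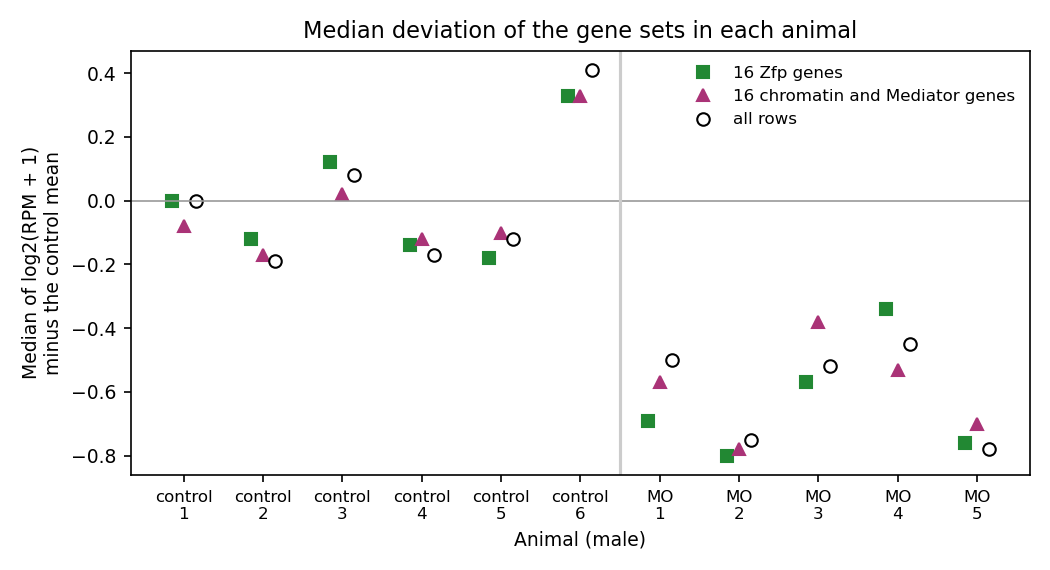
Median over genes of the log2(RPM + 1) deviation from the control mean in each male, for the 16 Zfp genes (squares), the 16 chromatin and Mediator genes (triangles) and all 1365 rows (circles). Control male 6 is highest in all 3, at 0.33, 0.33 and 0.41, and the 5 MO males lie between -0.34 and -0.80.

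Every MO animal lay below every control for 10 of the 32 genes, which is 31.2% against 29.9% of all rows. For 0 genes did every MO animal lie above every control, against 0.733% of all rows. The 10 genes were Hdac8, Hdac10, Hdac11, Kdm4a, Smarcd3, Zfp426, Zfp444, Zfp512b, Zfp763 and Zfp955a. A further 11 genes had 4 of the 5 MO animals below every control, as did 407 of the 1365 rows. The histone deacetylases were the family with more than 1 member in which no gene overlapped between the groups, while no Dnmt or Med gene was free of overlap. With 3 and 4 genes these counts describe the genes and were not tested.

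Of the DNA methyltransferases, Dnmt1 (chromosome 8) copies methylation after replication, and Dnmt3a (chromosome 6) and Dnmt3b (chromosome 3) set it anew. Dnmt1 was at 12.1 to 19.5 RPM in control males (median 13.3) and at 9.38, 8.65, 12.5, 8.29 and 10 RPM in MO males 1 to 5. Of these, only MO male 3 reached into the control range. The log2 fold change was -0.53 ± 0.17 (SE). Dnmt3a was at 2.04 to 3.19 RPM in control males (median 2.69) and at 1.65, 0.582, 2.16, 0.00044 and 2.08 RPM in MO males 1 to 5. MO males 3 and 5 were within the control range, MO male 2 was well under it and MO male 4 had less than the worth of 1 read. Its log2 fold change was -0.81 ± 0.24 (SE), and the SD over the MO animals, 0.72 on the log2 scale, was the largest of the 32 genes in that group. Without MO male 4 the log2 fold change was -0.54. The row stands for 1 RefSeq transcript of Dnmt3a, and other transcripts of the gene are not analysed here. Dnmt3b was at 3.49 to 8.04 RPM in control males (median 5.91) and at 2.16, 2.56, 5.29, 4.53 and 3.54 RPM in MO males 1 to 5. Only MO males 1 and 2 were below every control, and the log2 fold change was -0.55 ± 0.21 (SE). Without MO male 1 it was -0.43 ± 0.22 (SE; limma adjusted p = 0.061) and no longer passed.

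The 3 listed histone deacetylases belong to different classes. Hdac8 is a class I enzyme encoded on chromosome X, Hdac10 (chromosome 7) is a class II enzyme that also deacetylates polyamines, and Hdac11 (chromosome 4) is the class IV enzyme. Hdac11 was at 11 to 20.2 RPM in control males (median 13.5) and at 10.5, 8.83, 8.47, 8.21 and 8.28 RPM in MO males 1 to 5. Its MO animals were close together, and its log2 fold change was -0.65 ± 0.17 (SE). Hdac8 was at 7.43 to 9.35 RPM in control males (median 7.81) and at 7.03, 4.84, 5.47, 5 and 4.83 RPM in MO males 1 to 5. MO male 1 was the nearest to the controls, and the log2 fold change was -0.52 ± 0.16 (SE). Hdac10 was at 11.4 to 15.6 RPM in control males (median 13.4) and at 9.92, 8.64, 10.1, 9.91 and 6.99 RPM in MO males 1 to 5. Here MO male 5 was the lowest, and the log2 fold change was -0.51 ± 0.16 (SE). After centring, Hdac11 was at -0.06 and Hdac8 and Hdac10 at 0.07 each.

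Of the histone methylation enzymes, Kdm4a (chromosome 5), which removes methyl groups from lysines of histone H3, was at 51.2 to 75.3 RPM in control males (median 59.4). It was at 35.7, 34, 37.4, 39.5 and 32.1 RPM in MO males 1 to 5. The groups did not overlap, with an SD of 9.98 RPM in controls (n = 6) and 2.89 RPM in MO males (n = 5), and the log2 fold change was -0.74 ± 0.16 (SE). Kdm6b (chromosome 10), which removes the Polycomb methyl mark from histone H3, was at 24.1 to 54.6 RPM in control males (median 35.7) and at 23.5, 19.5, 25.6, 25.1 and 24.2 RPM in MO males 1 to 5. The controls spread widely, 3 of the 5 MO animals were within their range, and the log2 fold change was -0.57 ± 0.20 (SE). Setdb1, the methyltransferase that works with KRAB zinc finger proteins, was at 28.1 to 52.6 RPM in control males (median 33.1) and at 23.7, 18.4, 24.3, 29.8 and 19.9 RPM in MO males 1 to 5. MO male 4 alone reached the control range, and the log2 fold change was -0.60 ± 0.19 (SE).

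The remodelling and DNA binding subunits gave 3 genes. Smarcd3 (chromosome 4), the BAF60C subunit of SWI/SNF complexes, was at 1.61 to 2.55 RPM in control males (median 2.2) and at 0.992, 0.855, 0.882, 1.13 and 1.04 RPM in MO males 1 to 5. Its groups were apart at a low level, and the log2 fold change was -0.67 ± 0.16 (SE). Arid3b (chromosome 8), a DNA binding protein with an AT-rich interaction domain, was at 3.68 to 7.44 RPM in control males (median 5.25) and at 3.25, 3.32, 4.15, 3.49 and 3.37 RPM in MO males 1 to 5. MO male 3 alone was within the control range. The log2 fold change was -0.48 ± 0.18 (SE), at the lower limit of the listed changes. Ino80e (chromosome 1), a subunit of the INO80 remodelling complex, was at 17.2 to 31.9 RPM in control males (median 24) and at 16.2, 16, 17.9, 23.8 and 11.5 RPM in MO males 1 to 5. MO males 3 and 4 were within the control range and MO male 5 was far below it. The log2 fold change was -0.49 ± 0.19 (SE), and without that animal it was -0.36 ± 0.20 (SE; limma adjusted p = 0.0791) and no longer passed.

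Of the Mediator subunits, Med4 (chromosome 15) belongs to the middle module, Med20 to the head, and Med16 (chromosome 7) and Med29 (chromosome 1) to the tail. Med20 had the largest change of the 32 genes with a pseudocount of 1, but it was barely measured. Control males 1 to 6 were at 0.0879, 2.03, 0.313, 1.98, 3.09 and 1.96 RPM, and MO males 1 to 5 at 0.312, 0.0412, 0.0194, 0.176 and 0.228 RPM. Control male 1 lay among the MO animals and control male 3 just above the highest of them. The worth of 3 reads was 0.26 to 0.38 RPM in these libraries, and 4 of the 5 MO males and 2 of the 6 controls were at or under it. The log2 fold change was -1.01 ± 0.27 (SE), and it was -2.32 with a pseudocount of 0.1 and -0.33 with one of 5, where Kdm4a was at -0.68. Med4 was at 16.3 to 25.9 RPM in control males (median 20.2) and at 12.1, 7.6, 16.8, 14.2 and 11.3 RPM in MO males 1 to 5. MO male 3 reached the control range, and the log2 fold change was -0.74 ± 0.19 (SE). Med16 (-0.56 ± 0.18, SE) and Med29 (-0.61 ± 0.20, SE) had 4 and 3 MO animals below every control.

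**Figure D4:**
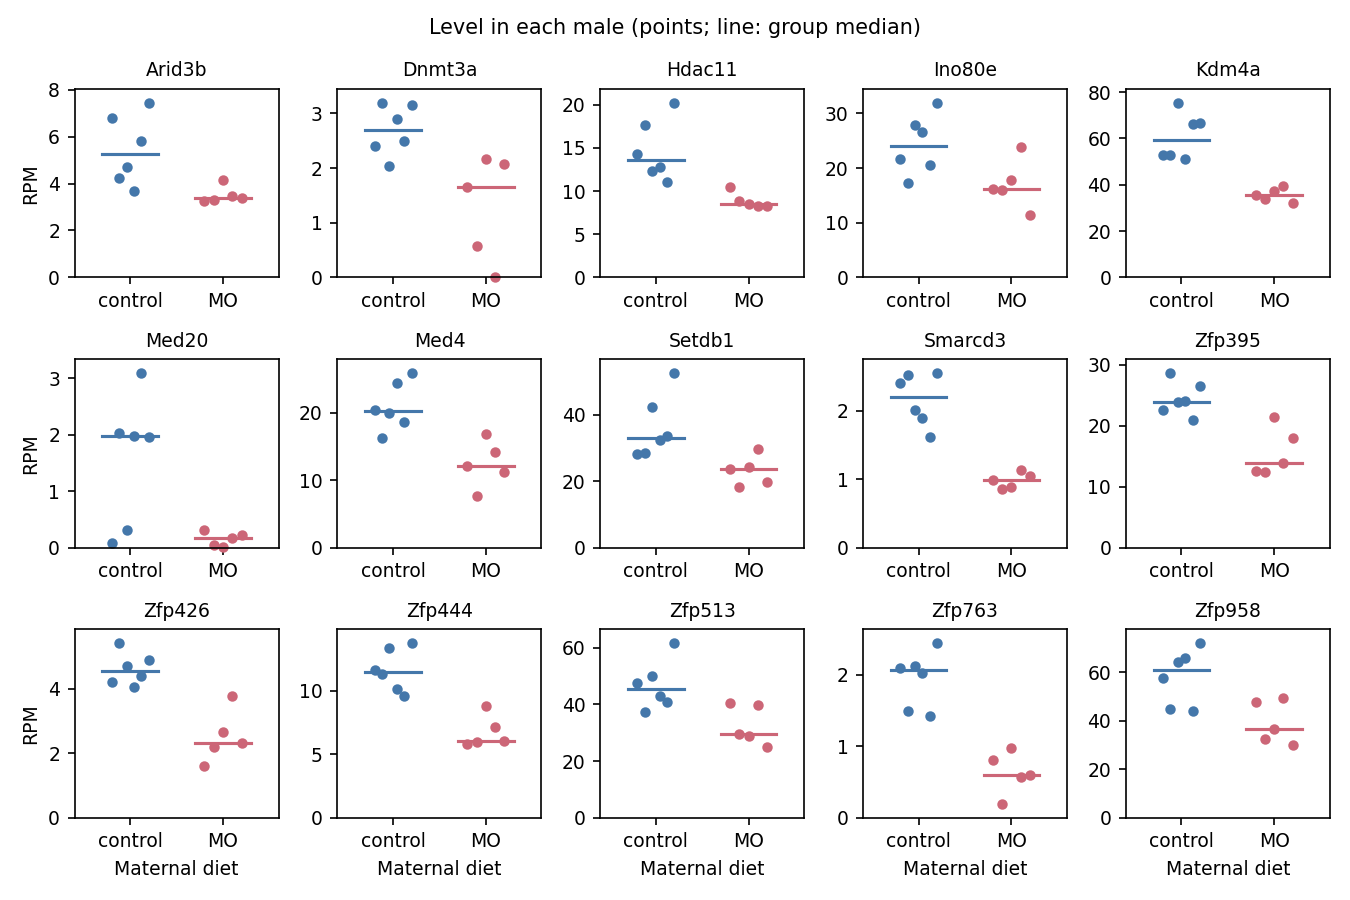
Level in RPM of 15 of the genes in each of the 6 control and 5 MO males, with a line at each group's median and every axis starting at 0. Kdm4a, Hdac11, Smarcd3, Zfp426, Zfp444 and Zfp763 show no overlap, while Med20 has 1 control among the MO animals and another just above them, and Dnmt3a has 2 MO animals within the control range.

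The 16 zinc finger genes had log2 fold changes of -0.86 to -0.49, with a median of -0.60, against -0.59 for the other 16 genes of the set. Zfp763 (chromosome 7), which the deposited table describes under another zinc finger name, was at 1.43 to 2.44 RPM in control males (median 2.06) and at 0.812, 0.19, 0.97, 0.566 and 0.604 RPM in MO males 1 to 5. The groups were apart at a low level, and the log2 fold change was -0.86 ± 0.18 (SE). Zfp426 (chromosome 8) was at 4.06 to 5.4 RPM in control males (median 4.54) and at 1.62, 2.18, 2.65, 3.78 and 2.33 RPM in MO males 1 to 5. Its controls varied least of the 32 genes, with an SD of 0.13 on the log2 scale, and its log2 fold change was -0.70 ± 0.17 (SE). Zfp444, a protein with a SCAN domain, was at 9.58 to 13.7 RPM in control males (median 11.4) and at 5.77, 5.98, 8.82, 7.17 and 6.04 RPM in MO males 1 to 5. MO male 3 was the nearest to the controls, and the log2 fold change was -0.70 ± 0.17 (SE).

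Zfp395 (chromosome 15) was at 20.9 to 28.6 RPM in control males (median 23.9) and at 12.5, 12.4, 21.4, 13.9 and 17.9 RPM in MO males 1 to 5. MO male 3 was within the control range, and the log2 fold change was -0.63 ± 0.17 (SE). Zfp207 (chromosome 10), a protein of spindle assembly, showed the same animal within the control range, at 34.6 RPM against 17.7 to 26.2 RPM in the other MO males and 30.7 to 53.2 RPM in controls (-0.63 ± 0.19, SE). Zfp958 was at 44.2 to 71.9 RPM in control males (median 60.9) and at 47.6, 32.7, 36.6, 49.3 and 30.1 RPM in MO males 1 to 5. MO males 1 and 4 overlapped the controls, and the log2 fold change was -0.56 ± 0.19 (SE). Zfp513 (chromosome 6) was at 37.3 to 61.5 RPM in control males (median 45.3) and at 40.4, 29.4, 28.7, 39.8 and 24.9 RPM in MO males 1 to 5. The same pair of MO animals overlapped the controls, and the log2 fold change was -0.51 ± 0.18 (SE).

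The paralogues Zfp385a (chromosome 7) and Zfp385b (chromosome 3) had the least separated groups of the zinc finger genes. For Zfp385a, 0 of the 5 MO animals lay below every control, because control male 5 was at 7.06 RPM and the other controls at 13.2 to 23.2 RPM, and the MO males were at 7.18 to 10.4 RPM (-0.59 ± 0.22, SE). In an exact two-sided permutation test over the table its adjusted p was 0.0505. For Zfp385b 2 of 5 were below every control (-0.63 ± 0.22, SE), and without MO male 2 it was at -0.44 ± 0.21 (SE; limma adjusted p = 0.0509). Zfp865 (chromosome 1), at -0.49 ± 0.18 (SE), was at -0.38 ± 0.19 (SE; limma adjusted p = 0.0564) without MO male 3. The other zinc finger genes were Zfp955a (-0.62), Zfp362 (-0.61), Zfp414 (-0.60), Zfp386 (-0.50) and Zfp512b (-0.49), with SEs of 0.17 to 0.19. Zfpl1 (-0.50 ± 0.18, SE) shares the name stem, but its protein is known from the membrane of the Golgi apparatus and not from chromatin. Zinc finger genes often have near copies, and the sources used here do not give how reads that fit several transcripts were counted. Their single values are uncertain to that extent. Other genes also had values that were not whole reads, such as 0.00044 RPM for Dnmt3a in MO male 4 and 0.0194 RPM for Med20 in MO male 3.

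The deposited table places 26 of the 32 genes on 10 chromosomes and gives none for Med20, Setdb1, Zfp362, Zfp444, Zfp958 and Zfpl1. Chromosome 7 held 6 of them, Hdac10, Med16, Zfp385a, Zfp414, Zfp763 and Zfp955a, which is 23.1% of those placed against 7.69% of all rows placed. None of the 32 genes is the direct neighbour of another in GRCr8. Zfp763 and Zfp955a have 14 protein-coding genes between them, Zfp955a and Zfp414 have 16, and Dnmt1 and Zfp426 have 12.

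Other genes of the same kinds came from lists of related factors. Of 133 chromatin genes in 7 lists, 9 were in the table, 8 lower and 1 higher, where 96.5% of all rows were lower. The lower ones included Ehmt2, a methyltransferase of histone H3 (94.4 to 161 RPM in controls, 62.5 to 94.7 RPM in MO males; -0.60 ± 0.18, SE), and Suv420h2, which methylates histone H4 (-0.70 ± 0.17, SE; 5 of 5 MO animals below every control, as for 29.9% of all rows). Ring1 (-0.52 ± 0.18, SE) and Cbx2 (-0.66 ± 0.23, SE) of Polycomb complexes, Smyd2 (-0.50), the corepressor Sin3b (-0.51), Mbd6 (-0.50) and the remodelling factor Hells (-0.50) were lower too. For Ring1 as well, 5 of 5 MO animals lay below every control. The Polycomb subunit Pcgf5 was the higher one. It was at 2.1 to 4.89 RPM in controls (median 3.32) and at 5.14, 4.75, 5.91, 5.29 and 3.97 RPM in MO males 1 to 5, with 3 of 5 above every control (0.52 ± 0.18, SE, with a limma adjusted p of 0.012). The lists of KRAB partners, histone acetyltransferases, other remodelling subunits and the Mediator kinase module had 0 listed members of 7, 21, 19 and 3. Of 14 further zinc finger name stems, 5 had a row, with 8 genes, all lower, from -0.57 to -0.49. They were Zbtb5, Zbtb7b, Zbtb22, Klf12, Zfyve21, Zc3h7b, Zc3h12a and Zmynd8. Zfyve21 was found by the stem Zfy and is a FYVE domain protein. The median of these 17 related genes was -0.51, against -0.58 for all rows.

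Control males were not alike in Rmrp, an RNA without a poly(A) tail. Its level was 1.2 RPM in control male 1 and 1.52 RPM in control male 5, against 36.9 to 51.2 RPM in the other 4 controls. MO males had 1.71 to 3.11 RPM. Against control males 1 and 5 alone, all 32 genes were lower, with a median of -0.51, and 10 passed the limma threshold, where 36.1% of all rows passed as lower. Against the other 4 controls, the median was -0.64 and 31 passed, where 94.1% of all rows did as lower. Arid3b was the gene that did not (-0.38 ± 0.21, SE; limma adjusted p = 0.0782). Its change was -0.69 against control males 1 and 5. Dnmt1, Dnmt3b and Zfp955a were nearer to 0 against control males 1 and 5 (-0.37, -0.31 and -0.30) than against the other 4 (-0.61, -0.68 and -0.77). Markers of other liver cell types were lower too where they were listed, as were 96.5% of all rows. Every MO animal lay below every control for 29.9% of all rows. The endothelial marker Vwf, 1 of 7, was at 10.2 to 17.2 RPM in controls and 7.69 to 10.9 RPM in MO males. The stellate cell markers Pdgfrb and Des, 2 of 7, summed to 22.3 to 27.8 RPM in controls and 12.7 to 16.4 RPM in MO males. The bile duct markers Krt19 and Epcam, 2 of 5, summed to 11.4 to 18 RPM in controls and 6.17 to 13.4 RPM in MO males. None of these was at 0 in any animal. No marker of Kupffer cells, neutrophils or erythroid cells was listed. Of 10 hepatocyte markers Cps1 was listed and was lower as well (-0.52 ± 0.19, SE), at 859 to 1900 RPM in controls and 796 to 916 RPM in MO males. The part of these in the changes of the 32 genes was not tested.

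Among the female rows 1 gene carried one of the name stems. Zfp39 (chromosome 10) was at 7.08, 10, 5.27, 0.935, 10.8 and 5.31 RPM in control females 1 to 6 and at 0.566, 1.11, 2.38, 1.43 and 1.99 RPM in MO females 1 to 5. Control female 4 was among the MO animals, and the other 5 controls were above all of them. The log2 fold change was -1.45 ± 0.40 (SE), with a limma adjusted p of 0.00932, in a table where 30.4% of the rows passed as lower. The exact permutation test gave an adjusted p of 0.0554. The female rows were also selected for a small p in this same comparison, so both p-values are too small and describe a listed row. Without control female 4 the log2 fold change was -1.80. None of the 32 genes is in the female table and Zfp39 is not in the male table, so the effect could not be compared between the sexes.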

How the data were processed

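Libraries were made from total RNA of 22 livers with an Illumina TruSeq RNA kit, per the labels' protocols, and the software in the submitters' processing notes is Partek and STAR 2.3.1j with the build rn5, in roles left unstated. The sources used here do not give the annotation or the counting rule. The values deposited by the authors are RPM with 1 added, as inferred from the values. After 1 was subtracted, 81.4% to 87.2% of low male values fell within 0.02 of a whole number of reads, too few to recover reads. For low female values the share was 55.6% to 64.2%, so the unit is less certain in females. The authors' deposited table also gives unadjusted p-values and unsigned log2 fold changes, which were recomputed for 1365 of 1365 male rows. In R 4.3.3, limma 3.58.1 with a mean-variance trend was fitted for each sex to log2(RPM + 1), a pseudocount of 1, with no filter and with Benjamini-Hochberg adjustment over all rows of its table at 0.05. This scale understates the change of low genes. Since the rows were selected, its p-values are too small. Alternatives were other pseudocounts, a low-value filter, centring, an exact permutation test, other limma settings, a replicate block and fewer animals.

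Described singly were the largest change of each name stem, the 10 largest, the 3 with the highest mean and any gene higher or past the threshold after centring. Other genes described were chosen after their values were seen. The genes and lists were chosen with earlier results of these data known. Correlations of same-numbered males' deviations were -0.10 to 0.15 over 5 pairs. This cannot decide whether replicate numbers pair the males, since litters are not given. All 32 genes matched RefSeq, 30 by accession, 1 by gene ID and 1 by symbol. A further marker list is not reported here.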

Additional observations from a re-analysis of the deposited data

Results flagged for a closer look

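For the 15 singly described male genes and Zfp39, the highest and lowest animals were examined in 32 groups of 5 or 6 animals, of which chance marks about 1 in 20. In 1 group an animal stood far from the others on the log2(RPM + 1) scale. Its gap to the next animal was 0.65 of the group's range, against a limit of 0.625. Control female 4 had 0.935 RPM of Zfp39, where the next lowest control female had 5.27 RPM.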

How the results depend on the processing

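Direction and calls of the 32 genes were recomputed under 21 alternatives. All 32 stayed lower under each except centring on library medians and a filter at a mean of 1 RPM, which left 31 genes, all lower. Centring left 72 rows and 0 of the 32 genes past the limma threshold, 18 of them lower and with a median of -0.02, because it subtracts the shift shared by the rows. After centring, 14 of the 32 genes were above 0. Among the 15 singly described genes, those that changed sign were Arid3b (0.10), Ino80e (0.10), Zfp513 (0.07) and Zfp958 (0.03). With control males 1 and 5 as the only controls, 531 rows and 10 of the 32 genes passed, with fewer samples. Leaving out 1 animal at a time gave 1282 to 1364 rows past the threshold, 31 to 32 of the genes past it, 32 lower and a median of -0.64 to -0.53. For Zfp39 it gave -1.80 to -1.28, and the exact permutation test (-1.45) no longer passed. With the replicate number as a block, 1344 rows and 32 genes passed, with a median of -0.53, and Zfp39 was at -1.46, so that no call among these genes changed. In females 3 of 5 same-numbered pairs correlated above 0.1. At 0.086 to 0.127 RPM per read, Med20 was at or under the worth of 3 reads in 4 MO males and 2 controls. The cause of these low values was not tested. Genes of low level also depend on the pseudocount: with 0.1 and with 5, Dnmt3a was at -1.62 and -0.30, Zfp763 at -1.58 and -0.30, and Smarcd3 at -1.06 and -0.26. With 5, Zfp426 was at -0.36 and Arid3b at -0.28. All of these stayed lower and past the threshold.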
